A study of Homo sapiens with 15 samples.

Results

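The 10 genes described here are TGFB1, TGFB2, INHBA and BMP4, which encode ligands of the transforming growth factor beta (TGF-beta) and bone morphogenetic protein (BMP) family, the inhibitors SMAD6, SMAD7 and SKIL, and the BMP target genes ID1, ID2 and ID3. They were chosen by name, and all 10 were found among the 58219 genes of the count table. RNA was sequenced in 15 libraries of BEAS-2B cells, an immortalized line of human bronchial epithelial cells grown without serum on plates coated with collagen. In the 24-h protocol, cells received vehicle control or a single exposure at 1 or at 30 µg/cm2 to PM2.5, fine particulate matter from outdoor air in Beijing that had been washed off filters with water. In the repeated protocol, cells were collected at 7 d after daily vehicle control or daily 1 µg/cm2 of PM2.5, with washing in between. Each of these 5 groups held 3 libraries, and the methods give 3 independent experiments for each protocol. Libraries of 1 protocol that share a number in their labels were taken here as 1 experiment, which the labels do not state. All libraries came from 1 cell line, so p-values measure the spread between experiments in these cells.

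TGF-beta family ligands bind type I and type II receptor kinases, which phosphorylate receptor SMADs, and these enter the nucleus with SMAD4. TGF-beta and activin signal mostly through SMAD2 and SMAD3, and BMPs through SMAD1, SMAD5 and SMAD9. The pathway induces its own inhibitors SMAD6, SMAD7 and SKIL, and BMP signals induce the ID genes, whose proteins hold E proteins off DNA and are known to restrain differentiation.

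Library totals ranged from 21460981 to 34724765 counted reads around a median of 29243177. At this depth, 3 counts in a library equal 0.0864 to 0.140 CPM (counts per 1000000 counted reads, scaled by edgeR's TMM factors), a floor that covers counting error only. All 10 genes passed the filter on low counts and were tested together with the rest of the 17599 genes that passed it. The libraries of experiment 2 in the 24-h protocol stood apart from those of experiments 1 and 3, with mitochondrial genes at 4.13% to 4.40% of counts against 2.76% to 3.42%, and its part in the results was measured by leaving it out. All 9 epithelial markers examined reached 1 CPM in every group, and their summed level was 2203 to 2940 CPM in the 24-h controls and 1039 to 1564 CPM after 30 µg/cm2. It was 2811 to 3503 CPM in the 7-d controls and 1919 to 2089 CPM after daily exposure, also without overlap. These lower levels stood beside the values of the 10 genes in both comparisons, and their part in them was not tested. The leukocyte marker LYZ was at 0 in all libraries and PTPRC, CD3E, PECAM1, CDH5 and VWF at 0.263 CPM or less, while CD14 reached 2.30 to 23.4 CPM. Of 6 fibroblast and smooth muscle markers, PDGFRB, COL1A1 and COL1A2 reached 1 CPM in every group, and the 6 summed to 74.1 to 115.6 CPM in the 24-h controls and 48.1 to 90.3 CPM after 30 µg/cm2.

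The bases in front of RefSeq starts of BMP4, SMAD6 and SMAD7 are shown because these genes differed between 30 µg/cm2 and control. They are the 250 bases before the start that lies farthest upstream in the RefSeq promoter table on GRCh38.p14, 5′ to 3′ on the strand of the gene. Capitals mark every match, on either strand, to 6 short motifs: GGCGCC, a GC-rich element bound by SMAD1 and SMAD5; GTCTAGAC, the palindromic SMAD box; CAGAC, the core of the SMAD-binding element, which reads GTCTG on the other strand; CANNTG, the E-box bound by E proteins; GCGTG, the core bound by the aryl hydrocarbon receptor; and TGANTCA, the AP-1 element. No marked match overlaps another. The BMP4 window lies at chr14:53955051-53955300 on the minus strand. This is inside the gene as counted, which spans 53949736 to 53958761, and 0 of its bases are exon in the count table. For SMAD6 the window is chr15:66701986-66702235 on the plus strand, of which the last 8 bases are exon in the count table. For SMAD7 it is chr18:48950966-48951215 on the minus strand.
BMP4: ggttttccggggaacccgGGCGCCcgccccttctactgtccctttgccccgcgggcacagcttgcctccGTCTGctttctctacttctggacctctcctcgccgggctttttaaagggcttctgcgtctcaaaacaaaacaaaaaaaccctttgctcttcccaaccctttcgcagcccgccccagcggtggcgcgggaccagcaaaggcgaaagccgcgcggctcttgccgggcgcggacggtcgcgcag
SMAD6: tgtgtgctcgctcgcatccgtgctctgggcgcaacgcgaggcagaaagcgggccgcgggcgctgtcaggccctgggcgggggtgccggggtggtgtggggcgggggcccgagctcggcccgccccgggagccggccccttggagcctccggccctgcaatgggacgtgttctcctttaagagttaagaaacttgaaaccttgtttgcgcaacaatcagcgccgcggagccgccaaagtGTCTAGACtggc
SMAD7: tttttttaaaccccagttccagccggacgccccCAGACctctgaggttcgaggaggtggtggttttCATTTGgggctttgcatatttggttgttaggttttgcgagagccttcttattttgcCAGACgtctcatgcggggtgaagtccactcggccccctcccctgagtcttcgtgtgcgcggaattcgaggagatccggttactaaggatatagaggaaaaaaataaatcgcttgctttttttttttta
The BMP4 window held GGCGCC and 1 CAGAC, the SMAD6 window the SMAD box 12 bases before the start, and the SMAD7 window 2 of CAGAC and an E-box. Of the 35116 promoters in the table, 16.4% held GGCGCC, 0.182% GTCTAGAC, 38.0% CAGAC, 61.8% CANNTG, 32.2% GCGTG and 6.57% TGANTCA in the same window. The 10 genes had 14 starts in the table, of which 2 held GGCGCC (BMP4 and SKIL), 1 GTCTAGAC, 7 CAGAC, 5 CANNTG, 6 GCGTG and 0 TGANTCA. The window of ID3 lies wholly in bases counted as its exon and is not shown. A match describes only the letters of these windows, and binding in these cells was not tested.

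Compared per length, as CPM per kb of exon, ID1 had the highest mean of the 10 genes in all 5 groups and TGFB1 the next. In the 24-h controls, the level of ID1 was 25.5 ± 4.47 CPM per kb (SD, n = 3) and that of TGFB1 17.4 ± 3.33 CPM per kb. BMP4, ID3, SKIL and TGFB2 followed with mean levels of 7.15, 6.48, 4.87 and 3.77 CPM per kb, where BMP4 overlapped ID3, and SKIL overlapped TGFB2. SMAD7, ID2, INHBA and SMAD6 were lowest, at mean levels of 1.49, 1.05, 0.374 and 0.112 CPM per kb, with overlap except between ID2 and INHBA. After 30 µg/cm2, ID1 and TGFB1 overlapped. ID1 was below TGFB1 in experiments 1 and 3, at 11.3 and 12.7 against 14.5 and 16.5 CPM per kb. Only in experiment 2 was ID1 above, at 34.3 against 18.7 CPM per kb. At that dose INHBA overlapped its neighbours SMAD7 and ID3 at 1.75 CPM per kb, and SMAD6 was lowest at 0.0262 CPM per kb. At 7 d, BMP4 stood seventh in both groups, below ID2 and SMAD7, though it overlapped ID2 in the controls. INHBA and SMAD6 were last in both groups and overlapped.

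**Figure D1:**
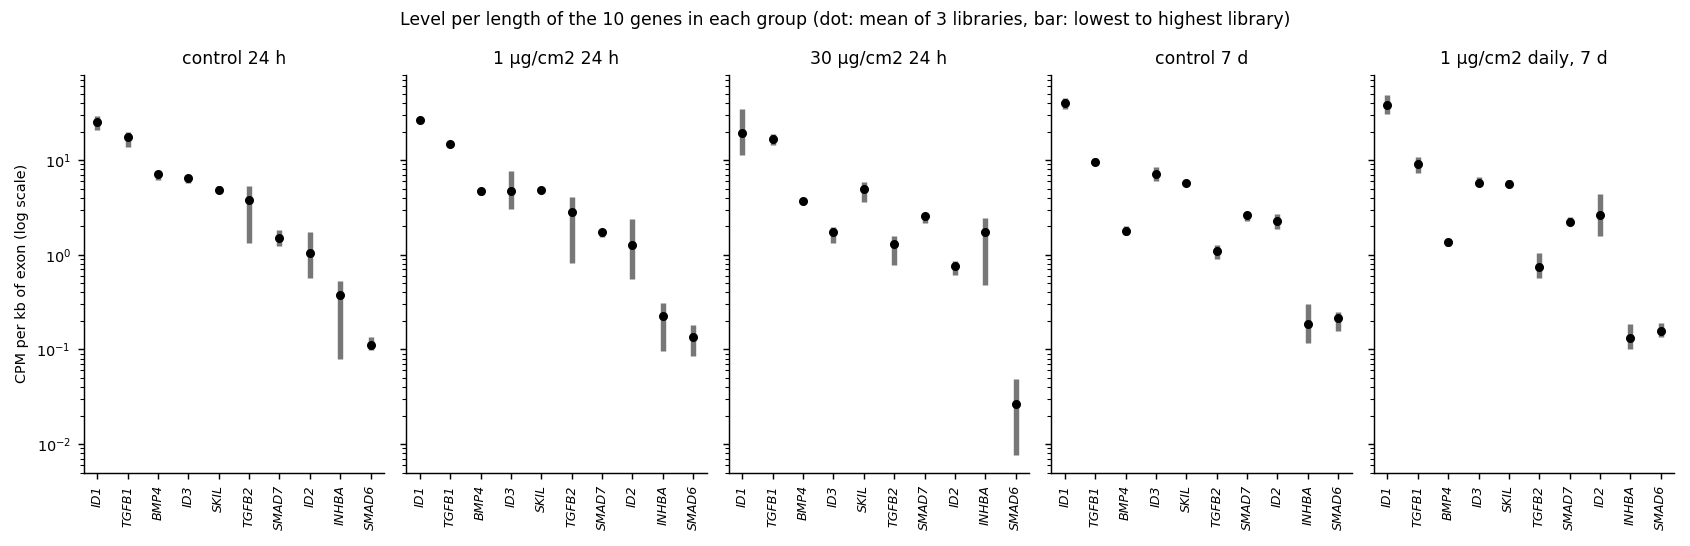
Level of each of the 10 genes in CPM per kb of exon on a log scale, with 1 panel per group and the genes in the order of the 24-h controls. Dots are means of 3 libraries and bars run from the lowest to the highest library. ID1 has the highest mean in every panel, and SMAD6 has a mean of 0.0262 CPM per kb after 30 µg/cm2.

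The first comparison asked what a single 24-h exposure to 30 µg/cm2 of PM2.5 did to these transcripts. BMP4, ID3 and SMAD6 fell and SMAD7 rose, and for these 4 genes the treated and control libraries did not overlap, which was also so for 22.8% of all genes tested. The same 4 of the 10 genes were called (Benjamini-Hochberg adjusted p under 0.05 and absolute log2 fold change of at least 0.6 in edgeR's quasi-likelihood test), beside 8.07% of all genes. With a replicate block for the experiment, the rise of INHBA and the fall of TGFB2 were called as well, 6 of 10 genes beside 15.2% of all genes. Without experiment 2, ID1 was also called lower, 7 of 10 genes beside 19.1%. DESeq2 and the likelihood ratio test each called the 4 genes, INHBA and TGFB2, beside 10.4% of all genes in both. A fit of only the 24-h control and 30 µg/cm2 libraries called BMP4 and ID3, 2 of 10 genes beside 2.23%. The median log2 fold change of the 10 genes was -0.43, beside 0.03 over all genes. In bulk RNA, fewer cells that express a gene and less of its RNA per cell cannot be told apart.

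**Figure D2:**
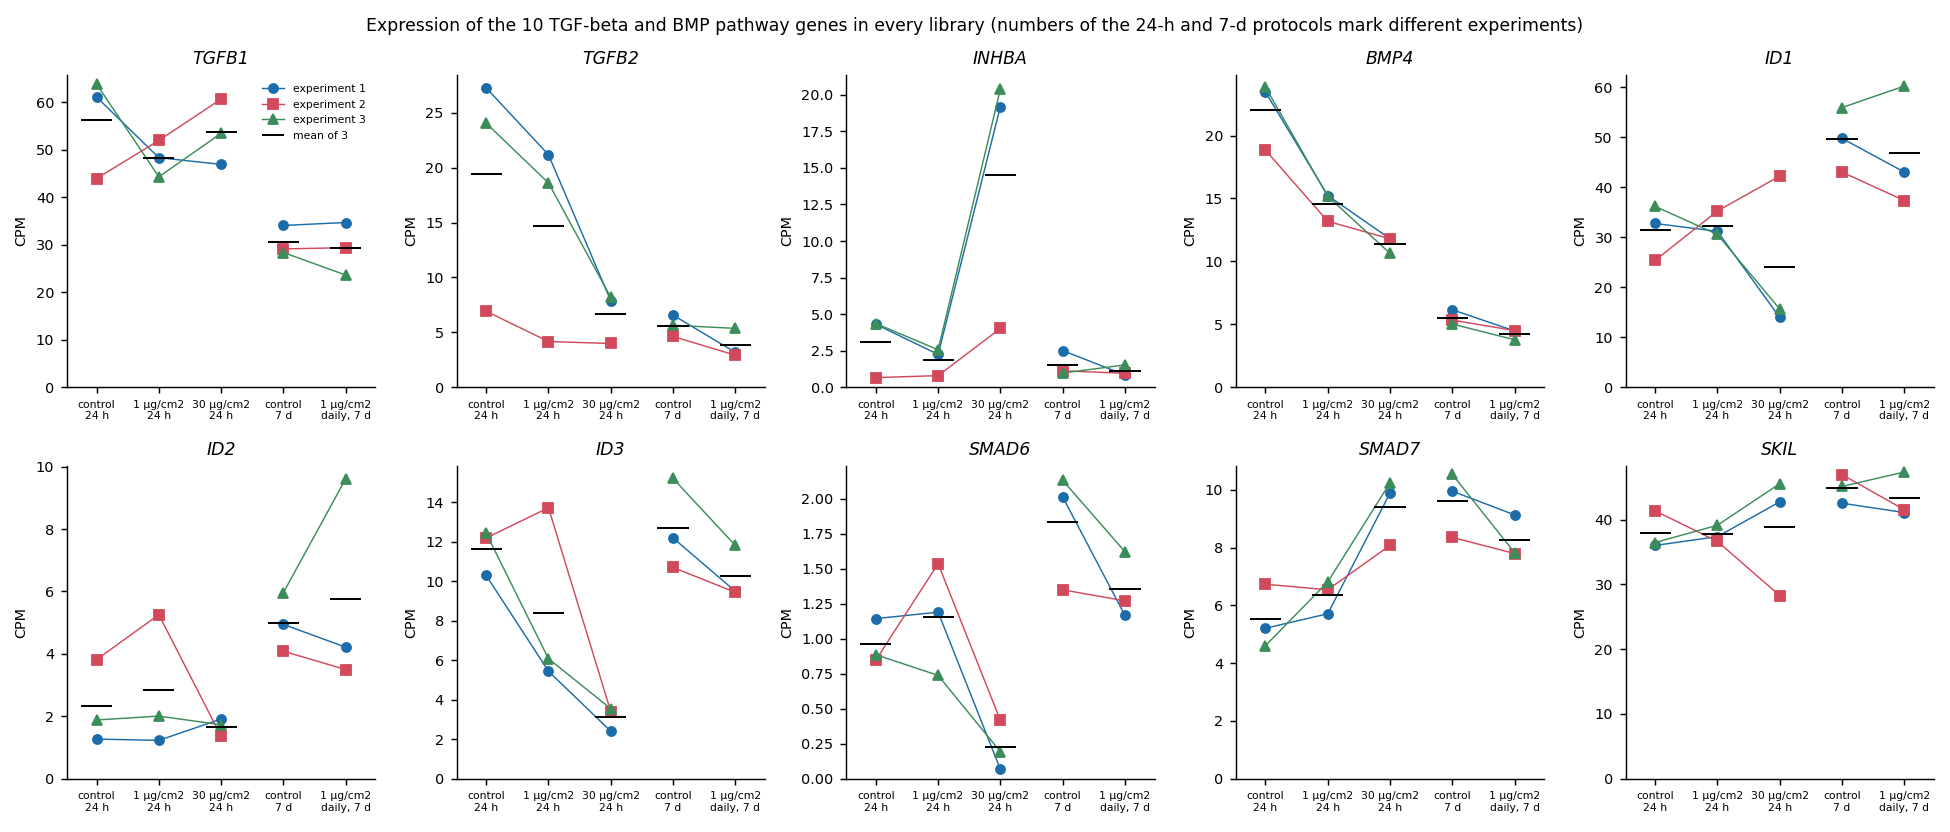
CPM of each gene in each of the 15 libraries, with 1 panel per gene and linear axes from 0. Symbols mark the experiment, lines join libraries of 1 experiment within a protocol and black bars are means of 3. BMP4 is lower at each higher dose in all 3 experiments of the 24-h protocol, whereas ID1 at 30 µg/cm2 is at 14.0 and 15.7 CPM in experiments 1 and 3 and at 42.2 CPM in experiment 2.

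Among the ligands, BMP4 (chr14:53949736-53958761, minus strand), which signals through SMAD1 and SMAD5, changed with the least spread. It was at 23.5, 18.8 and 23.8 CPM in the controls of experiments 1, 2 and 3, and at 11.8, 11.8 and 10.6 CPM after 30 µg/cm2. All 3 treated libraries lay below all 3 controls. The log2 fold change was -0.95 (SE 0.14), or 1.93-fold lower (edgeR quasi-likelihood test, adjusted p = 0.000782), and was called with each library left out in turn.

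INHBA (chr7:41667168-41705834, minus strand), whose product forms activin A, was higher after 30 µg/cm2 in each experiment. It was at 4.31, 0.659 and 4.36 CPM in the controls and at 19.2, 4.02 and 20.4 CPM after treatment, a rise of 4.46-, 6.10- and 4.68-fold within experiments 1, 2 and 3. The groups overlapped because the treated library of experiment 2 lay below the controls of the other 2 experiments. INHBA was not called, at 2.20 on the log2 scale with an SE of 0.67 (edgeR quasi-likelihood test, adjusted p = 0.0535). It was called with the replicate block, at 2.24 (adjusted p = 7.08e-05 in the same test), and without experiment 2, at 2.18 (adjusted p = 1.1e-05). Leaving out only the treated library of experiment 2 (2.65, adjusted p = 0.00749) or its library at 1 µg/cm2 (2.20, adjusted p = 0.032) also gave a call. DESeq2 (adjusted p = 0.00896) and the likelihood ratio test (adjusted p = 0.0163 in edgeR) called INHBA as well.

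TGFB2 (chr1:218346235-218444619, plus strand), a TGF-beta isoform, was lower in each experiment. Its controls were at 27.3, 6.92 and 24.1 CPM and its treated libraries at 7.89, 3.99 and 8.19 CPM, which was 3.46-, 1.74- and 2.94-fold lower. The groups overlapped through the control of experiment 2. The fitted change of -1.54 (log2, SE 0.55) was not called (edgeR quasi-likelihood test, adjusted p = 0.098), and that of -1.41 with the replicate block was (adjusted p = 0.000524). It was also called without the control of experiment 2 (-1.94, adjusted p = 0.0311) or its library at 1 µg/cm2 (-1.55, adjusted p = 0.0239), by DESeq2 (adjusted p = 0.0322) and by edgeR's likelihood ratio test (adjusted p = 0.0451). Its exons share 1371 bases with TGFB2-OT1 on the same strand, which held 0 counts.

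TGFB1 (chr19:41301587-41353911, minus strand), the TGF-beta isoform best known from fibrosis, was at 61.1, 43.9 and 63.8 CPM in the controls and at 46.9, 60.7 and 53.4 CPM after 30 µg/cm2. The groups overlapped, and the treated library was lower in experiments 1 and 3 and higher in experiment 2. Its log2 fold change was -0.07 (SE 0.17, edgeR quasi-likelihood test, adjusted p = 0.859). TGFB1 shares 215 exon bases with HNRNPUL1 on the other strand, and since the sources used here do not give the strand setting of the counting, reads of the 2 genes may not be told apart there.

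The ID genes encode helix-loop-helix proteins that lack a DNA-binding region, and only ID3 was called among them. ID3 (chr1:23557918-23559794, minus strand) was at 10.3, 12.2 and 12.4 CPM in the controls and at 2.40, 3.40 and 3.54 CPM after 30 µg/cm2. The groups lay far apart, and the treated library was 4.29-, 3.59- and 3.51-fold lower within experiments 1, 2 and 3. ID3 changed by -1.91 (log2, SE 0.31), or 3.75-fold lower (edgeR quasi-likelihood test, adjusted p = 0.00147), and was called with each library left out in turn.

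ID1 (chr20:31605283-31606515, plus strand), a direct BMP target that is widely used as a readout of BMP signals, differed in direction between experiments. It was at 32.8, 25.4 and 36.2 CPM in the controls and at 14.0, 42.2 and 15.7 CPM after 30 µg/cm2. The treated library was 2.34- and 2.31-fold lower in experiments 1 and 3 and 1.66-fold higher in experiment 2. ID1 was not called with all experiments at a log2 fold change of -0.39 and an SE of 0.33 (edgeR quasi-likelihood test, adjusted p = 0.535), nor was it with the replicate block (-0.53, adjusted p = 0.195). Without experiment 2 it was -1.24 and was called (adjusted p = 4.58e-05), as it was without the treated library of experiment 2 alone (-1.09, adjusted p = 0.00291).

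ID2 (chr2:8678845-8684453, plus strand) was at 1.26, 3.81 and 1.88 CPM in the controls and at 1.91, 1.35 and 1.72 CPM after 30 µg/cm2. The groups overlapped, and the largest step was in experiment 2, where ID2 was 2.82-fold lower and ID1 higher. Its log2 fold change of -0.46 (SE 0.54) was not called (edgeR quasi-likelihood test, adjusted p = 0.675). ID2 shares 38 exon bases with ID2-AS1 on the other strand, which held 91 counts over all libraries.

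Of the inhibitors, SMAD6 fell and SMAD7 rose. SMAD6 (chr15:66702228-66782848, plus strand), which acts mainly on BMP receptors and SMAD1, held 38, 18 and 25 counts in the controls and 2, 12 and 4 counts after 30 µg/cm2. This was 1.14, 0.848 and 0.886 CPM against 0.0657, 0.416 and 0.192 CPM, without overlap and with the treated library of experiment 1 under the floor of 3 counts. SMAD6 changed by -2.08 (log2, SE 0.48), or 4.23-fold lower (edgeR quasi-likelihood test, adjusted p = 0.013). It was not called without the treated library of experiment 1 (-1.62, adjusted p = 0.0523) or of experiment 3 (-2.00, adjusted p = 0.0601), nor in a fit of only the libraries compared (adjusted p = 0.12).

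SMAD7 (chr18:48919853-48950711, minus strand), which acts on TGF-beta, activin and BMP receptors, was at 5.21, 6.73 and 4.61 CPM in the controls and at 9.90, 8.08 and 10.2 CPM after 30 µg/cm2. All 3 treated libraries lay above all controls, and experiment 2 had the smallest rise, of 1.20-fold. SMAD7 changed by 0.77 (log2, SE 0.17), or 1.71-fold higher (edgeR quasi-likelihood test, adjusted p = 0.0119). It was not called without the control of experiment 1 (0.72, adjusted p = 0.0592) or 3 (0.65, adjusted p = 0.0698), or without the treated library of experiment 1 (0.72, adjusted p = 0.0671) or 3 (0.71, adjusted p = 0.0595), nor in a fit of only the libraries compared (adjusted p = 0.144).

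SKIL (chr3:170357678-170396835, plus strand), a corepressor of SMAD3 and SMAD4 also known as SnoN, was at 36.0, 41.3 and 36.5 CPM in the controls and at 42.7, 28.3 and 45.5 CPM after 30 µg/cm2. The groups overlapped, and the treated library was lower in experiment 2 and higher in the other 2 experiments. The log2 fold change was 0.03 (SE 0.15, edgeR quasi-likelihood test, adjusted p = 0.93).

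The next comparison asked whether a single dose of 1 µg/cm2 changed the same genes at 24 h. None of the 10 was called by edgeR's quasi-likelihood test, beside 0.0625% of all genes, 1 had an unadjusted p under 0.05 (534 of all 17599 genes did), and DESeq2 called 1 and the likelihood ratio test 0. The gene with the low p was BMP4, at 15.2, 13.2 and 15.2 CPM after 1 µg/cm2. These 3 libraries lay between those of the controls and those of 30 µg/cm2, with no overlap with either, and BMP4 was the only 1 of the 10 genes that did not overlap the controls, beside 4.44% of all genes. Its log2 fold change was -0.60 (SE 0.14, edgeR quasi-likelihood test, adjusted p = 0.427), and within experiments it was 1.54-, 1.43- and 1.57-fold lower. DESeq2 called BMP4 (-0.60, adjusted p = 0.00761) beside 0.222% of all genes.

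The other genes overlapped at 1 µg/cm2. ID3 was at 5.44, 13.7 and 6.08 CPM in experiments 1, 2 and 3, and so was 1.89- and 2.05-fold lower than control in experiments 1 and 3 and 1.13-fold higher in experiment 2. Its log2 fold change was -0.48 (SE 0.29, edgeR quasi-likelihood test, adjusted p = 1) with all experiments and -0.97 (adjusted p = 0.00608) without experiment 2. Without that experiment BMP4 and ID3 were called, 2 of 10 genes beside 2.11% of all genes. INHBA was at 2.24, 0.793 and 2.56 CPM, below control in experiments 1 and 3 and above it in experiment 2, with a log2 fold change of -0.73 (SE 0.68). The log2 fold changes of the other 7 genes lay between -0.40 for TGFB2 and 0.28 for ID2.

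Between 30 and 1 µg/cm2 at 24 h, INHBA was higher and ID3 and SMAD6 were lower at the higher dose. These 3 of 10 genes were called beside 7.84% of all genes, and TGFB2 was called lower as well with the replicate block, 4 of 10 beside 15.6%. INHBA differed by 8.56-, 5.07- and 7.96-fold within experiments 1, 2 and 3, and its libraries did not overlap. On the log2 scale this was 2.93 (SE 0.70), or 7.65-fold higher (edgeR quasi-likelihood test, adjusted p = 0.0169). ID3 was at -1.43 (log2, SE 0.31, adjusted p = 0.00976 in the same test) and SMAD6 at -2.32 (SE 0.47, adjusted p = 0.00737), both without overlap. BMP4 and SMAD7 also did not overlap between the doses, at -0.35 (SE 0.14, edgeR quasi-likelihood test, adjusted p = 0.142) and 0.57 (SE 0.17, adjusted p = 0.0546). That made 5 of the 10 genes without overlap, beside 21.6% of all genes. INHBA was not called without the library of experiment 1 at 1 µg/cm2 (adjusted p = 0.0506 in that test) or that of experiment 1 (0.0664) or 3 (0.0699) at 30 µg/cm2, nor was ID3 without that of experiment 1 at 30 µg/cm2 (0.0562). Without the library of experiment 2 at 30 µg/cm2, ID1 (-1.14, edgeR quasi-likelihood test, adjusted p = 0.00242) and SMAD7 (0.65, adjusted p = 0.029) were called as well, and without that at 1 µg/cm2 TGFB2 was (-1.59, adjusted p = 0.0352). Without experiment 2 altogether 6 of 10 genes were called beside 17.3% of all genes. A fit of only the libraries of both doses called 0 of 10 beside 0.918%, with adjusted p = 0.111 for INHBA, 0.153 for ID3 and 0.143 for SMAD6 in edgeR's quasi-likelihood test, and 4 of the 10 had an unadjusted p under 0.05. This comparison and both comparisons with the 24-h controls share libraries.

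After daily exposure to 1 µg/cm2, none of the 10 genes was called against the control at 7 d, beside 0.227% of all genes (edgeR quasi-likelihood test). At an unadjusted p under 0.05 there was 1 of the 10, beside 2102 of all 17599 genes. DESeq2 and the likelihood ratio test each called 0 of the 10, and 249 and 194 of all genes. That gene was again BMP4, at 6.16, 5.34 and 5.02 CPM in the controls and at 4.47, 4.51 and 3.77 CPM after daily exposure. Its treated libraries lay below all controls, which for the 10 genes was so for BMP4 only. At 7 d groups failed to overlap for 42.9% of all genes, so that absence of overlap was common there. The fitted change of BMP4 was -0.37 (log2, SE 0.15, edgeR quasi-likelihood test, adjusted p = 0.327), and it was 1.38-, 1.18- and 1.33-fold lower within experiments.

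ID3 was also lower within each of the 3 experiments of the repeated protocol, at 12.2, 10.7 and 15.2 CPM in the controls and 9.50, 9.44 and 11.8 CPM after daily exposure. The groups overlapped, and the log2 fold change of -0.31 (SE 0.29) was not called (edgeR quasi-likelihood test, adjusted p = 0.726). SMAD6 was at 2.01, 1.35 and 2.13 CPM in the controls and 1.17, 1.27 and 1.62 CPM after daily exposure, with overlap and a log2 fold change of -0.44 (SE 0.38). SMAD7 was lower in each experiment too, with a log2 fold change of -0.22 (SE 0.17), and so was TGFB2, at -0.56 (SE 0.56). ID2 was at 9.61 CPM in the treated library of experiment 3 against 3.49 and 4.21 CPM in those of the others, and its log2 fold change was 0.21 (SE 0.50). By experiment, 9, 9 and 6 of the 10 genes were lower than control. Each of these counts rests on 1 treated and 1 control library. The share of all genes that were lower was not counted, so they are no result about the 10 genes.

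**Figure D3:**
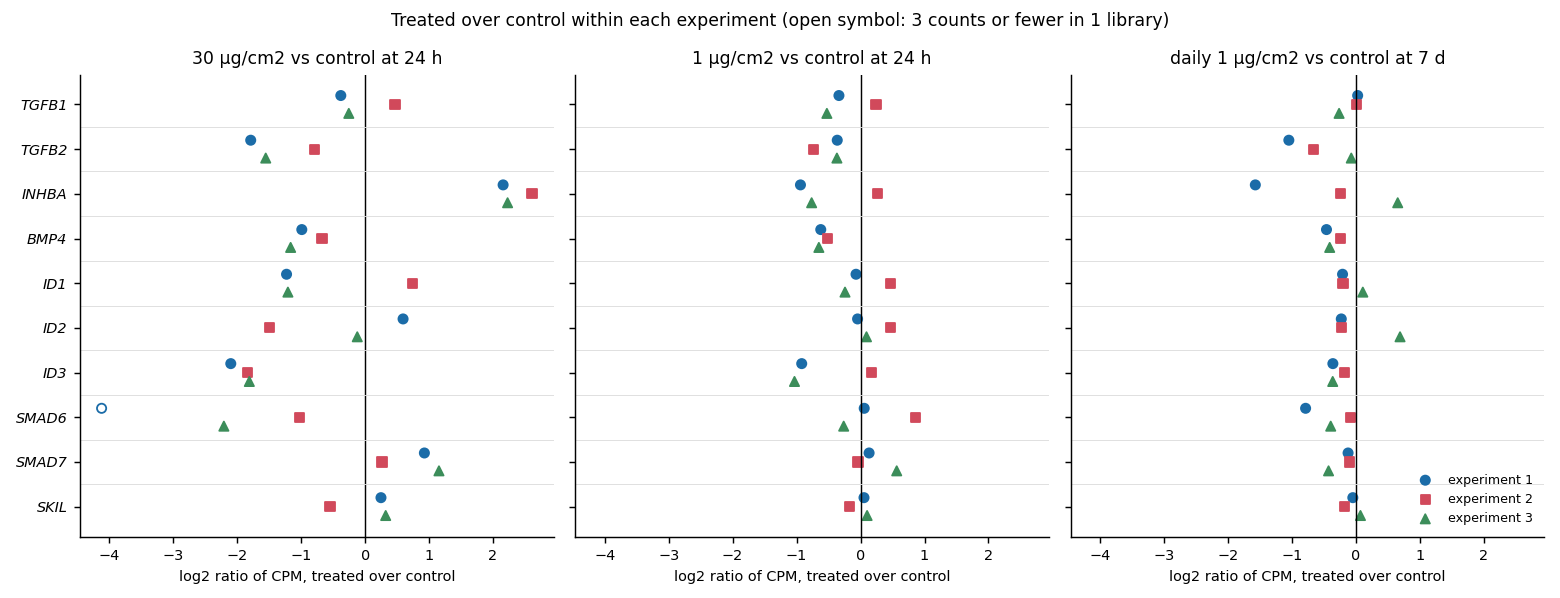
Log2 ratio of treated over control CPM within each experiment, with 1 panel each for 30 µg/cm2 at 24 h, 1 µg/cm2 at 24 h and daily 1 µg/cm2 at 7 d. Each symbol is 1 experiment, and the open symbol marks a library with 3 counts or fewer. BMP4 lies left of 0 in all panels, from -1.17 to -0.24, while the squares of experiment 2 lie right of 0 for ID1 in both 24-h panels.

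The response to daily exposure was then set against that to the single dose of 1 µg/cm2, as the difference of both log2 fold changes. The difference was called for 0 of the 10 genes and for 0 of all 17599 genes (0% of them) by edgeR's quasi-likelihood test. None of the 10 had an unadjusted p under 0.05 (1245 of all genes did), and DESeq2 and the likelihood ratio test called 0 of the 10 and 62 and 13 of all genes. SMAD6 had the largest difference among the 10, at -0.68 (SE 0.56), followed by SMAD7 at -0.43 (SE 0.24). For BMP4 it was 0.23 (SE 0.20, edgeR quasi-likelihood test, adjusted p = 0.888).

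The controls of both protocols differed in 4 of the 10 genes, beside 21.9% of all genes (edgeR quasi-likelihood test). These were different experiments, plated at different densities, so time in culture, density and experiment cannot be told apart. BMP4 was at 5.02 to 6.16 CPM at 7 d and 18.8 to 23.8 CPM at 24 h, which was 4.01-fold lower (log2 fold change -2.00, SE 0.15, adjusted p = 2.74e-06). TGFB1 was at 28.4 to 34.1 CPM against 43.9 to 63.8 CPM, or 1.85-fold lower (edgeR quasi-likelihood test, adjusted p = 0.00186). TGFB2 was 3.47-fold lower (adjusted p = 0.0268 in that test), and SMAD7 rose 1.75-fold, to 8.36 to 10.5 CPM (adjusted p = 0.0037). The libraries of ID1, ID2, SMAD6 and SKIL at 7 d also lay above all those at 24 h, without a call in this fit, at log2 fold changes of 0.66, 1.13, 0.92 and 0.24. With the 4 called genes this made 8 of 10 without overlap, beside 52.3% of all genes. SMAD6 was called by DESeq2 (adjusted p = 0.0477), which called 24.1% of all genes, and by edgeR's likelihood ratio test (adjusted p = 0.0379), which called 24.5%. In a fit of only the controls, SMAD6 (adjusted p = 0.0363) and ID1 (adjusted p = 0.0149 in edgeR's quasi-likelihood test) were called beside 26% of all genes. Without experiment 2 of the 24-h protocol, INHBA was called lower and ID2 and SMAD6 higher in addition, 7 of 10 genes beside 31% of all genes. Leaving out the 24-h control of experiment 2 gave a call for ID2 (1.65, edgeR quasi-likelihood test, adjusted p = 0.0462), and leaving out the library of that experiment at 30 µg/cm2 gave calls for ID1 (0.63, adjusted p = 0.0151) and SMAD6 (0.89, adjusted p = 0.0454). The call of TGFB2 was lost without the 24-h control of experiment 1 (adjusted p = 0.0847 in that test) or 3 (0.0804), or without the 7-d control of experiment 1 (0.0607), 2 (0.096) or 3 (0.0792).

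Other genes of the pathway were read from 6 lists of 90 genes, of which 70 could be tested. At 30 µg/cm2 for 24 h, 4 were called higher and 8 lower, 17.1% of those tested beside the 8.07% of all genes. With the replicate block 4 were higher and 14 lower, beside 15.2% of all genes called. The lists are described by counts and medians only, and the strand setting of the counts is unknown for genes that overlap others. At 1 µg/cm2, after daily exposure and in the difference of both, 0 of 70 were called by edgeR's quasi-likelihood test. Unadjusted p was under 0.05 for 6, 8 and 6 of them, beside 534, 2102 and 1245 of all 17599 genes. DESeq2 called 1, 3 and 0 of the 70, beside 39, 249 and 62 of all genes. The likelihood ratio test called 1, 2 and 0, beside 34, 194 and 13 of all genes. With the replicate block 2, 5 and 1 were called, beside 74, 773 and 181 of all genes. In a fit of only the libraries compared, 4 of the 12 calls at 30 µg/cm2 were kept, those of GDF15, TGFBR3, ITGB8 and JUNB. Without experiment 2 of the 24-h protocol, 9 were called higher and 19 lower at 30 µg/cm2, beside 19.1% of all genes called. Between 30 and 1 µg/cm2, 4 were higher and 8 lower, beside 7.84% of all genes called.

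Among 14 tested ligands, GDF15 and BMP6 rose and GDF7 and GDF11 fell at 30 µg/cm2, beside 8.07% of all genes called. The median log2 fold change over the list was -0.28. With the replicate block 2 were called higher and 5 lower, beside 15.2% of all genes called. INHA, GDF6 and AMH were called lower in some fits with 1 library left out. GDF15, a distant family member that is secreted by stressed cells, rose 13.5-fold (log2 fold change 3.76, SE 0.40, edgeR quasi-likelihood test, adjusted p = 7e-05), from 15.5 to 28.2 CPM in the controls to 136.8 to 351.8 CPM. Its 7-d controls, at 166.2 to 197.4 CPM, lay within that treated range. BMP6, a ligand of the BMP type I receptors, was at 0.0942 to 0.391 CPM in the controls and 0.694 to 1.25 CPM after treatment, with 2 and 3 counts in 2 of the controls (log2 fold change 2.32, SE 0.61, adjusted p = 0.027). The call of BMP6 was lost without the control of experiment 2 or 3 or the treated library of 1 or 3 (adjusted p = 0.0863, 0.11, 0.102 and 0.0946 in edgeR's quasi-likelihood test). GDF7 and GDF11 had log2 fold changes of -2.19 (SE 0.35) and -0.82 (SE 0.15).

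Of 15 tested receptors and co-receptors, 3 were called lower and 0 higher at 30 µg/cm2, beside 8.07% of all genes called. TGFBR2, the type II receptor of TGF-beta, was at 585.0, 203.4 and 541.2 CPM in the controls and at 191.2, 195.9 and 197.6 CPM after treatment. Its 3 treated libraries were nearly alike, and the control of experiment 2 lay close to them. TGFBR2 changed by -1.19 (log2, SE 0.32, edgeR quasi-likelihood test, adjusted p = 0.028), a call lost without the control (adjusted p = 0.105 and 0.097) or the treated library (0.0946 and 0.097) of experiment 1 or 3. TGFBR3, the co-receptor betaglycan, and RGMA, a BMP co-receptor, had log2 fold changes of -1.58 (SE 0.20) and -1.45 (SE 0.40), lower in all 3 experiments. RGMA lost its call without the control of experiment 2 (adjusted p = 0.163 in edgeR's quasi-likelihood test), the treated library of experiment 1 (0.139) or 3 (0.152), or any 7-d control (0.0504 to 0.0514). The other 12 lay between -0.42 for BMPR1B and 0.44 for ACVR1C.

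None of the 15 SMADs and intracellular regulators was called at 30 µg/cm2 by edgeR's quasi-likelihood test, with log2 fold changes from -1.32 for LDLRAD4 to 0.55 for ZFYVE9. Their median was 0.07, and 4 had an unadjusted p under 0.05, beside 4161 of all 17599 genes. DESeq2 and the likelihood ratio test called 0 of them. Without the treated library of experiment 2, SMURF1, SMURF2, TGIF1 and ZFYVE9 were called higher, at 0.74, 0.68, 0.69 and 0.71. That fit called 2706 of all genes, against 1420 with all 15 libraries. Among 16 tested extracellular binders and activators, ITGB8, an integrin chain that releases latent TGF-beta, was 2.83-fold lower (edgeR quasi-likelihood test, adjusted p = 0.00035), at 11.8 to 13.7 CPM against 32.4 to 40.7 CPM. It was the only 1 called, beside 8.07% of all genes, and the median of the list was -0.47. With the replicate block 4 were called lower, beside 15.2% of all genes called. Without experiment 2 altogether 6 were, beside 19.1%. THBS1 was called lower without the control of experiment 2 (-2.06, edgeR quasi-likelihood test, adjusted p = 0.0154). LTBP1 (-0.73, adjusted p = 0.0275) and LTBP3 (-1.46, adjusted p = 0.000967) were without its treated library.

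Known target genes of the pathway moved both ways at 30 µg/cm2. JUNB, a transcription factor of the AP-1 family, rose 2.09-fold. ATOH8, a transcription factor induced by BMPs, was at 0.756, 4.27 and 0.575 CPM after treatment, 13.3-, 8.29- and 19.2-fold lower than control within experiments and without overlap. It changed by -3.30 (log2, SE 0.74, edgeR quasi-likelihood test, adjusted p = 0.011), a call lost without the treated library of experiment 1 (adjusted p = 0.0599) or 3 (0.0573). CCN2, TGFBI, HEY1 and SNAI2 were not called, with log2 fold changes of -1.22, -0.35, 0.59 and 0.34. Without the control of experiment 2 CCN2 was called lower (-1.74, edgeR quasi-likelihood test, adjusted p = 0.00163), and without its treated library TGFBI was (-0.61, adjusted p = 0.0285). Of the E proteins that ID proteins bind, TCF4 was 1.80-fold lower (edgeR quasi-likelihood test, adjusted p = 0.013), at 5.34 to 6.56 CPM against 8.48 to 13.2 CPM, a call lost without the control of experiment 1 (adjusted p = 0.0554). TCF3 and TCF12 were not called, at log2 fold changes of 0.05 and 0.20.

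**Figure D4:**
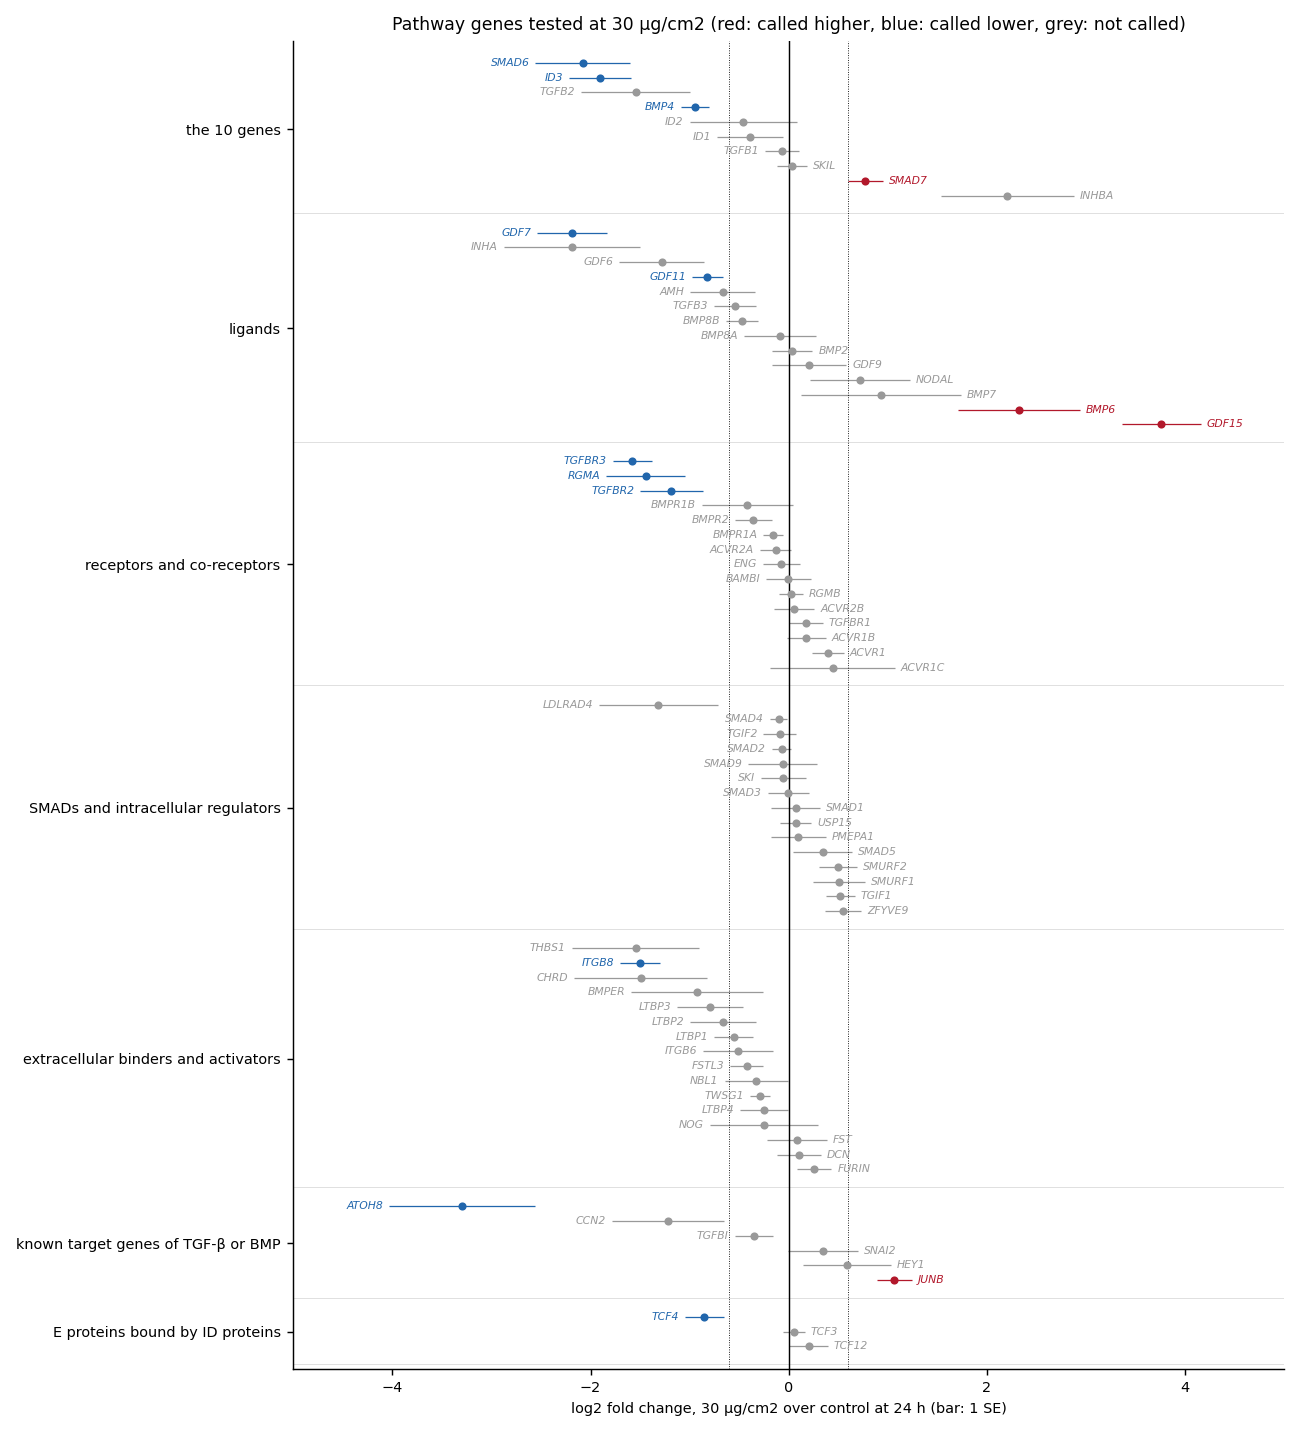
Log2 fold change at 30 µg/cm2 over control at 24 h for the 10 genes and for tested genes of 6 pathway lists, with 1 SE. Red and blue mark genes called higher and lower, grey those not called, and dotted lines the threshold of 0.6. GDF15 lies farthest right among called genes and ATOH8 farthest left, and the SMADs and intracellular regulators hold no called gene.

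The genes whose pattern was most like that of each ID gene were found as those with the smallest root mean square difference of log2 CPM, centred on the mean of each gene, over the 15 libraries. For ID1 they were ZC4H2, FAM136DP and HPSE, at 0.28, 0.29 and 0.30, beside a median of 0.70 over all genes. ID2 was most like KRT17, CRABP2 and NFIL3, at 0.31, 0.34 and 0.38, beside a median of 0.97. ID3 was most like PDGFD, PCDH18 and ABCA8, at 0.36, 0.36 and 0.37, beside a median of 0.90. Between the ID genes the value was 0.58 for ID1 and ID3, 0.73 for ID1 and ID2 and 0.70 for ID2 and ID3. A gene at the same level in all libraries would have 0.575 against ID1, 0.881 against ID2 and 0.801 against ID3. The values of ID3 and ID2 against ID1 were thus no smaller than that of such a gene. Ordered by likeness to ID3, ID1 stood at rank 410 and ID2 at rank 1844 among the tested genes. By likeness to ID1, ID3 stood at rank 3964 and ID2 at rank 9796. By likeness to ID2, ID3 stood at rank 1223 and ID1 at rank 1645. These values share libraries, groups and depth and are given as a description only.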

How the data were processed

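RNA from 15 libraries was sequenced by the authors as single-end reads of 50 bases from poly-A mRNA, aligned with STAR 2.5.3 to GRCh38 per the methods (the submitters' processing notes name hg19, but the coordinates in the table are those of GRCh38) and counted per gene with featureCounts. The deposited values are raw counts. The annotation release, strand setting and multimapping options are not given in the sources used here. The labels give 7 daily exposures and the methods 6 with collection on day 7.

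The counts were fitted here with edgeR 4.0.16 in R 4.3.3 (filterByExpr by group, TMM, quasi-likelihood test in legacy mode, 1 mean per group, all 15 libraries). The study's methods name edgeR, glmQLFit and the thresholds, and the other settings were chosen here. A call needed a Benjamini-Hochberg adjusted p under 0.05 over the 17599 genes tested, with a log2 fold change of 0.6 or more in size. An SE is the fitted log2 fold change over the square root of its F value. The table was searched for all 58219 genes, 57437 of which have a symbol. CPM per kb uses the exon length in the table. Tables and figures were made with Python 3.11.15, pandas 2.3.3 and matplotlib 3.10.9.

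The labels number the libraries of a group and do not say what a number marks. It was read here as the experiment within a protocol, and fits with a replicate block were also made. Deviations from group means correlated at 0.185 to 0.700 between 24-h libraries of the same number (mean 0.51) and at -0.66 to 0.43 between different numbers, and at 0.108 to 0.159 and -0.11 to -0.03 at 7 d. Numbers 1 and 3 at 24 h were less clearly separate. The 30 µg/cm2 library 3 correlated at 0.374 with control 1 and at 0.185 with control 3. The 30 µg/cm2 library 1 correlated at 0.531 with control 1 and at 0.0953 with control 3. Other alternatives were RLE, no filter, the current quasi-likelihood mode, the likelihood ratio test, DESeq2 1.42.0, only the libraries compared, each library left out, and 24-h experiment 2 left out. The fit was also run on simulated counts that held no difference between experiments, so that run does not bear on the part of experiment 2.

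All 10 genes are named. Of the 6 lists, genes called in a comparison of treatment with control are named, and others as ends of ranges, and for each ID gene the 3 genes most like it. Some genes of the lists that the rule would name are not reported here, though the counts and medians of the lists include them. The 10 genes, the lists, the motifs and the choice to leave out experiment 2 were made with earlier results of these data known. Promoter windows come from the RefSeq table on GRCh38.p14. No sample column was left out.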

Additional observations from a re-analysis of the deposited data

How the results depend on the processing

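Numbers are of the 10 genes called. At 30 µg/cm2 against control the number was 4, and 6 with DESeq2, the likelihood ratio test or no filter, 5 in the current quasi-likelihood mode, 2 in a fit of only the libraries compared, 7 without experiment 2, and 2 to 6 with 1 library left out, lowest without either treated library of experiment 1 or 3. At 1 µg/cm2 it was 0, and 1 with DESeq2, 2 without experiment 2 and 0 to 0 with 1 library left out. Between the doses it was 3, and 4 with no filter, 0 in a fit of only the libraries compared, 6 without experiment 2 and 1 to 5 with 1 library left out. Between the controls it was 4, and 5 with DESeq2, the likelihood ratio test or no filter, 6 in a fit of only the controls, 7 without experiment 2 and 3 to 6 with 1 library left out. For daily exposure and for the difference of responses it was 0 under every alternative run. With the replicate block it was 6 and 4 at 30 µg/cm2 against control and against 1 µg/cm2, and the block changed no other call among the 10; it cannot be made between the controls, which are different experiments. Over all genes, the calls rose from 1420 to 2681 at 30 µg/cm2, from 11 to 74 at 1 µg/cm2, from 40 to 773 after daily exposure, from 1379 to 2737 between doses and from 0 to 181 for the difference of responses with the replicate block, and without experiment 2 they were 3430, 378, 1083, 3113 and 1766, and 5564 against 3860 between the controls. Of 1370 log2 fold changes of single genes under alternatives, 20 lost and 39 gained a call and 0 called values reversed. In 52 the sign changed where neither value was called. The causes were not tested. Depth limits SMAD6, which held 2 and 4 counts in 2 libraries at 30 µg/cm2.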
